A study of Mus musculus with 4 samples.

Results

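The genes described here are 10 transcription factor genes and regulators of the immediate early class, namely Egr1, the AP-1 genes Fos, Fosl1, Fosl2, Jun, Junb and Jund, the Krüppel-like genes Klf6 and Klf10, and Ier2. They were chosen by name from 53465 gene identifiers in the deposited count table, with results of the comparison of 1-nitropyrene with control in these libraries already known. Their differences between the groups are therefore given as a description and support nothing. Of the 10 genes, 7 passed the filter on low counts, as did 7738 genes in all.

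The 4 libraries of polyadenylated RNA carry the label MLE-12, an immortalized line of mouse lung epithelium used as a model of alveolar type 2 cells. The cells were kept with 5 µM 1-nitropyrene for 12 h (n = 2 libraries, replicates 2 and 3) or cultured without it (n = 2 libraries, control replicates 1 and 2). 1-nitropyrene is a nitrated polycyclic aromatic hydrocarbon of diesel exhaust. No transgene or deletion is named for either group, all libraries come from 1 cell line, and no label says that each library is a culture of its own, which means that replicate differences may be technical.

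Immediate early genes are transcribed within minutes of a growth factor or stress signal, without new protein synthesis, and most of their mRNAs decay quickly. The kinases ERK, p38 and JNK act on serum response factor, its ETS partners and CREB, which sit on these promoters. Jun proteins bind DNA as dimers with each other, with Fos proteins or with ATF proteins, and the dimers are called AP-1. Egr1 is a zinc finger factor that induces its own co-repressors, the Nab proteins. In lung epithelium these factors respond to particles and oxidants.

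Library totals were 8797502 and 8601825 counts with 1-nitropyrene and 10773733 and 6908055 counts in control. Loci of ribosomal RNA held 44.5% and 44.3% of counts with 1-nitropyrene and 46.1% and 45.8% in control, and leaving them out moved 0 of 7733 other genes' log2 fold changes by more than their standard error. With shares this alike in all 4 libraries, that check could show little. The counts of these loci stayed in the library sizes behind each CPM level and floor below. Of 11 alveolar and epithelial markers, 8 had 0 counts in all 4 libraries, including the keratins Krt8, Krt18 and Krt19, E-cadherin (Cdh1), Sftpb and Nkx2-1, so the labelled cell type was not borne out by its defining markers. The summed level of the list was 9.43 and 8.02 CPM of total counts with 1-nitropyrene and 10.4 and 8.11 CPM in control, nearly all of it from the lipid transporter Abca3. Mesenchymal markers summed to 387 and 401 CPM with 1-nitropyrene and 351 and 346 CPM in control, almost wholly Vim. Of these 11 markers 3 were tested, of which Vim was called higher and Acta2 lower. Acta2 had 12 and 0 counts with 1-nitropyrene and 36 and 7 in control, so its groups overlapped, and its call was lost without a filter on low counts, without control replicate 1 and without 1-nitropyrene replicate 3. DESeq2 gave Acta2 no adjusted p. Col1a1, Col1a2, Col3a1 and Tagln, named after their values were seen, had at most 2 counts in any 1-nitropyrene library and between 3 and 17 in the control libraries. Immune and endothelial markers reached at most 0.434 CPM in any library. The mitochondrial gene mt-Co1, whose mRNA is abundant in most cells, had 67 and 3 counts with 1-nitropyrene and 176 and 67 in control. Whether all reads came from mouse cells was not tested. Each level, zero and fold below is therefore that of a mouse locus in the authors' counts, and may not be that of a mouse mRNA. In such bulk RNA, fewer cells of a type and less RNA per cell cannot be told apart. The part of these marker levels in the results below was not tested.

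Promoter windows from RefSeq (build GRCm38.p6, 250 bases before to 50 bases after the annotated start) were at hand for 6 of the 10 genes, Fos, Fosl2, Jun, Junb, Jund and Klf6. 4 are shown, 5′ to 3′ on the gene's own strand, because they belong to a gene that was near equal between the groups (Jun), 2 that were lower with 1-nitropyrene (Klf6, Junb) and 1 that was higher (Fosl2). They lie at chr4:95052173-95052472 (minus strand, Jun), chr13:5861239-5861538 (plus strand, Klf6), chr8:84978699-84978998 (minus strand, Junb) and chr5:32136222-32136521 (plus strand, Fosl2). Capitals mark each match to a searched motif.
Jun: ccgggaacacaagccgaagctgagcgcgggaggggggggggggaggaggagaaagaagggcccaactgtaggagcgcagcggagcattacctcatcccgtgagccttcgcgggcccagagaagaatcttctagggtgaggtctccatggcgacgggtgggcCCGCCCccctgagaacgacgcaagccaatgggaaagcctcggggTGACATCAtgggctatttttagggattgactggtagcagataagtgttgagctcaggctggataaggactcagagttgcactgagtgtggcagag
Klf6: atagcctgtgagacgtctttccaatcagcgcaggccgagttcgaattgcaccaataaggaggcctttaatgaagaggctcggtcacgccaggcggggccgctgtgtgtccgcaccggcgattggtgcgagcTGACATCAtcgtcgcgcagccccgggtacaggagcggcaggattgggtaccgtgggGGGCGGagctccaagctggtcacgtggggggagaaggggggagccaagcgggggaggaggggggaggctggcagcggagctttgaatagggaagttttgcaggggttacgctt
Junb: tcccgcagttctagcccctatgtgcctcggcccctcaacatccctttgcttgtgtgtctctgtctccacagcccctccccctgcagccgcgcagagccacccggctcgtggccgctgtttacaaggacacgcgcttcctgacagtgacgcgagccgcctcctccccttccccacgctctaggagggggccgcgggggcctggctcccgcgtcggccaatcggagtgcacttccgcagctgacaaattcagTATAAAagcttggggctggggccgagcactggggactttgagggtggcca
Fosl2: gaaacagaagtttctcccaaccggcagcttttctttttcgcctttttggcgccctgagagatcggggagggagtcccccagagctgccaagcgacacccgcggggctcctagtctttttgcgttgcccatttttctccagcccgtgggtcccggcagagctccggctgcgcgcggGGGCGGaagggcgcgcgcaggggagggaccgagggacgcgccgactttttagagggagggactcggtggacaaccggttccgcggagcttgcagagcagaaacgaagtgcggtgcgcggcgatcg

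Both strands of the windows were searched for the CArG box bound by serum response factor, the CREB site TGACGTCA, the AP-1 site TGACTCA, the Egr site GCGTGGGCG, the Sp site GGGCGG and TATAAA. Neither the CArG box, TGACGTCA, TGACTCA nor GCGTGGGCG was found in the 6 windows, which says only that these letters are not in them. Among all 32851 windows of the same length, 1.63% held a CArG box, 1.79% held TGACGTCA, 5.2% held TGACTCA and 0.612% held GCGTGGGCG. The Sp site stood in 4 of the 6 windows (Fos, Fosl2, Jun and Klf6) and in 35.7% of all windows. G and C made up 58.7% (Fos) to 64.7% (Fosl2) of these 4 windows, against a median of 52.7% over all windows. The shares with a site are thus not those of windows alike in base content. TATAAA stood in 2 of the 6 (Fos and Junb) and in 13.6% of all. In Junb its first base was the RefSeq start itself, 30 bases upstream of the start that GENCODE M21 gives. The sequence TGACATCA, known from the Jun promoter as an element bound by Jun with Atf2, was added to the search after the windows were read. It lay 45 bases before the start of Jun and 119 bases before that of Klf6, and in 3.62% of all windows. No 2 matches in a window overlapped. The Jund window had no match, and the GENCODE start of Jund lies 1210 bases downstream of the RefSeq start, so this window is not the sequence just before the GENCODE model. For Fosl2 the GENCODE start (32135801) lies upstream of the whole window, so the sequence shown lies within the GENCODE gene.

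With 1-nitropyrene the levels of Egr1, Klf6 and Junb were lower than in control, those of Jund and Fosl2 were higher, Jun was near equal and Fosl1 was lower without being called. Egr1 stood at 0.443 of its control level, Klf6 at 0.603 and Junb at 0.712, while Jund stood at 1.26 and Fosl2 at 1.44 of control. Fos, Klf10 and Ier2 had almost no counts in either group. In edgeR's quasi-likelihood test over all 7738 genes, at a Benjamini-Hochberg adjusted p under 0.05, 3 of the 7 measured genes were called lower (background 11.2% of all genes) and 2 were called higher (background 13.2%), against 24.5% called in either direction. The groups did not overlap for 6 of the 7, nor for 59.2% of all genes. Since this contrast chose the genes, nothing is read from these counts. Levels below are TMM-normalised CPM, which are counts scaled to a common library size and composition, and fold changes are log2 of 1-nitropyrene over control with the standard error (SE) of the fit. The fit gave all genes 1 spread, so the SE takes no account of how far a gene's own libraries differed.

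**Figure D1:**
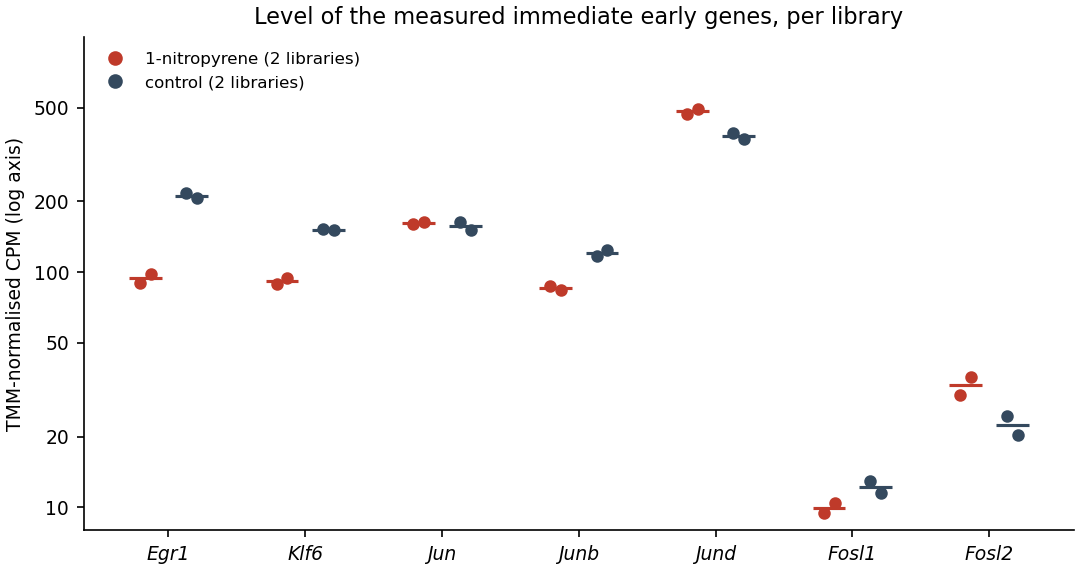
Level of each of the 7 measured genes in TMM-normalised CPM (vertical log axis) in the 2 libraries with 1-nitropyrene and the 2 control libraries, each point a library and each line a group mean. The groups stand apart for 6 of the 7 genes, as they do for 59.2% of all genes tested, and the exception is Jun, whose 1-nitropyrene libraries at 161 and 163 CPM lie within and just above the control range of 151 to 163 CPM.

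Egr1 (chromosome 18, 34859823 to 34864984, plus strand, GRCm38), the zinc finger factor of this class, had 90.1 and 98.0 CPM in the 1-nitropyrene libraries, against 216 and 207 CPM in the control libraries. The groups did not overlap, and the gap between their nearest libraries was 1.08 on the log2 scale, compared with 0.12 between the treated libraries and 0.06 between the controls. The mean level was 94.0 ± 5.63 CPM with 1-nitropyrene and 211 ± 6.21 CPM in control (SD, n = 2 each), a log2 fold change of -1.17 (SE 0.05). Of the 2053 genes that averaged 50 CPM or more over the libraries, 1 had a lower log2 fold change. The same number was 30 for Junb, 112 for Fosl1, 1034 for Jun, 1895 for Jund and 1997 for Fosl2. These ranks support nothing, since the genes were chosen with this contrast known. Egr1 has 4484 bases of merged exon in 2 exons and shares none with a gene on the other strand.

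Klf6 (chromosome 13, 5861482 to 5870394, plus strand) encodes a Krüppel-like zinc finger factor that binds GC-rich promoters. It had 88.6 and 94.3 CPM in the 1-nitropyrene libraries, against 152 and 151 CPM in the control libraries. Both treated libraries lay well below both controls, which were nearly the same. The log2 fold change was -0.73 (SE 0.06), and of the same 2053 genes 3 had a lower one. Klf10 (chromosome 15, 38291463 to 38300706), induced by TGF-beta in other cells, had 1 count in all, in control replicate 2. No fold was computed for it.

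Among the Jun genes, Jund (chromosome 8, 70698949 to 70700616, plus strand), the member whose transcription varies least with growth signals, had the highest level. It had 469 and 494 CPM in the 1-nitropyrene libraries, against 392 and 368 CPM in the control libraries. Every treated library lay above every control, with a log2 fold change of 0.34 (SE 0.04). Of its 1668 exon bases, 877 (52.6%) are also the whole of Gm11175, an antisense gene on the opposite strand. The count of Gm11175 was 3090 and 3038 with 1-nitropyrene and 3173 and 2045 in control, or 75.7% and 72.2% of the Jund count with 1-nitropyrene and 74.5% and 79.5% in control. On the log2 scale it rose by 0.28 with an SE of 0.04 (adjusted p = 1.04e-11, edgeR). Whether the authors counted by strand is not stated in these sources. Whether reads of Jund and of Gm11175 were told apart over the shared bases is therefore not known.

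Junb (chromosome 8, 84974484 to 84978718, minus strand), an AP-1 subunit that restrains Jun in several settings, had 87.4 and 83.8 CPM in the 1-nitropyrene libraries, against 117 and 124 CPM in the control libraries. The groups did not overlap, with a log2 fold change of -0.49 (SE 0.06). Jun (chromosome 4, 95049034 to 95052222, minus strand), the founding member, had 161 and 163 CPM in the 1-nitropyrene libraries, against 163 and 151 CPM in the control libraries. The groups overlapped, the log2 fold change was 0.04 (SE 0.05), and the 95% interval of the ratio of 1-nitropyrene to control was 0.959 to 1.10. Without control replicate 2 the log2 fold change of Jun was -0.0098, the only change of direction among the 7 genes over the 15 alternative settings tried. Junb shares 173 exon bases with Prdx2 and Jun 232 with Junos on the opposite strand, and neither partner had more than 3 counts in any library. The 3 Jun genes thus differed in direction between the groups, with Jund higher, Junb lower and Jun near equal.

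Fosl2 (chromosome 5, 32135801 to 32157842, plus strand) encodes the Fos-related antigen Fra-2, which lacks the strong activation domain of Fos. It had 30.0 and 36.0 CPM in the 1-nitropyrene libraries, against 24.6 and 20.2 CPM in the control libraries. The groups did not overlap, but the gap between their nearest libraries (0.29 on the log2 scale) was close to the gaps within the groups (0.26 with 1-nitropyrene and 0.28 in control). The log2 fold change was 0.53 (SE 0.12), with a 95% interval of the ratio of 1.23 to 1.69.

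Fosl1 (chromosome 19, 5447547 to 5455946, plus strand) encodes Fra-1, an AP-1 subunit known for long-lasting induction in migrating cells. It had 9.43 and 10.5 CPM in the 1-nitropyrene libraries, against 12.97 and 11.5 CPM in the control libraries. The treated libraries lay below both controls, with a log2 fold change of -0.32 (SE 0.18) that was not called and a 95% interval of the ratio from 0.625 to 1.03. Of its 2033 exon bases, 1163 (57.2%) lie in exons of the opposite-strand gene Ccdc85b, whose count was between 451% and 604% of that of Fosl1. Ccdc85b had 47.4 and 47.1 CPM with 1-nitropyrene and 67.4 and 69.2 CPM in control. It fell by 0.53 on the log2 scale with an SE of 0.08 (adjusted p = 2.49e-09, edgeR). Whether reads of Fosl1 and Ccdc85b were told apart over the shared bases is not known either.

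Fos (chromosome 12, 85473890 to 85477273), the prototype immediate early gene, had 1 and 0 counts in the 1-nitropyrene libraries, against 1 and 0 counts in the control libraries. Ier2 (chromosome 8, 84661331 to 84662852), a short single-exon growth factor response gene, had 1 and 0 counts with 1-nitropyrene and 0 and 0 in control. At a floor of 3 counts, these libraries could hide up to 0.349 CPM with 1-nitropyrene and up to 0.434 CPM in control. Differences below that were not detectable at this depth. Such near-empty rows were common, since 13546 of 21942 protein-coding genes (61.7%) had 2 or fewer counts in the 4 libraries together.

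**Figure D2:**
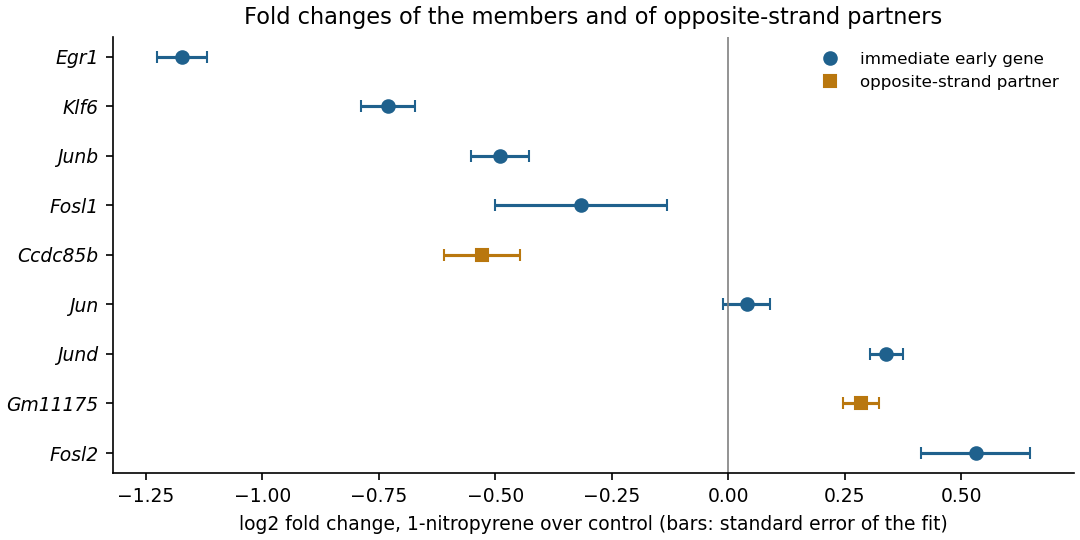
Log2 fold change of 1-nitropyrene over control (horizontal axis) for the 7 measured genes (circles) and for the 2 abundant opposite-strand partners (squares), with bars for 1 SE of the fit. Jund (0.34) lies beside its antisense partner Gm11175 (0.28), and Fosl1 (-0.32) has a wide bar beside its partner Ccdc85b (-0.53).

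The spread between libraries of 1 group, which the choice of genes did not use, was compared with counting noise. An exact binomial test (two-sided) of the 2 libraries' counts, given their scaled sizes, was run for 7 genes in 2 groups. Of these 14 pairs, 3 had an unadjusted p under 0.05 and 0 had a Benjamini-Hochberg adjusted p under 0.05. The 3 were Jund in control (exact p = 0.0146, adjusted p = 0.131), Jund with 1-nitropyrene (exact p = 0.0187, adjusted p = 0.131) and Fosl2 with 1-nitropyrene (exact p = 0.0322, adjusted p = 0.15). These tests compare libraries, not conditions, and they cover counting error only. PCR copies of a molecule, which are counted as separate reads, are not allowed for. Over all genes the libraries of a group did differ beyond sampling noise, with a chi-square per degree of freedom of 2.05 with 1-nitropyrene and 1.62 in control.

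Levels of different genes were compared per length, as CPM per kilobase of merged GENCODE M21 exon. With 1-nitropyrene Jund had 289 ± 10.6 CPM per kb, followed by Jun (50.7 ± 0.517), Junb (37.2 ± 1.11), Egr1 (21.0 ± 1.25), Klf6 (20.8 ± 0.917), Fosl1 (4.89 ± 0.358) and Fosl2 (3.41 ± 0.434), all CPM per kb with SD over 2 libraries. In control Jund had 228 ± 9.86 CPM per kb, followed by Junb (52.5 ± 2.22), Jun (49.2 ± 2.60), Egr1 (47.2 ± 1.38), Klf6 (34.5 ± 0.158), Fosl1 (6.01 ± 0.523) and Fosl2 (2.31 ± 0.318). Among neighbours in these orders, Egr1 and Klf6 overlapped with 1-nitropyrene, while Junb and Jun, and Jun and Egr1, overlapped in control. Jund was at the top and the Fos-related genes at the bottom in all 4 libraries, and 52.6% of the Jund length is shared with Gm11175.

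The makeup of the Jun family, as shares of the summed level per kb of Jun, Junb and Jund, differed between the groups. Junb held 10.3% and 9.49% in the 1-nitropyrene libraries, against 15.1% and 16.8% in the control libraries. Jund held 76.1% and 77.2% with 1-nitropyrene and 69.7% and 68.5% in control. The sum itself was 370 and 384 CPM per kb with 1-nitropyrene and 337 and 322 CPM per kb in control, so the treated libraries were higher. In the Fos family, taken with Fosb, Fosl2 held 35.2% and 38.6% of the level per kb with 1-nitropyrene and 24.6% and 23.8% in control. Fosl1 held 52.7% and 53.5% with 1-nitropyrene and 61.8% and 64.4% in control. The sum of the Fos family overlapped between the groups, at 8.80 and 9.61 CPM per kb with 1-nitropyrene and 10.3 and 8.76 CPM per kb in control. These shares follow from the levels above and are no separate evidence.

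**Figure D3:**
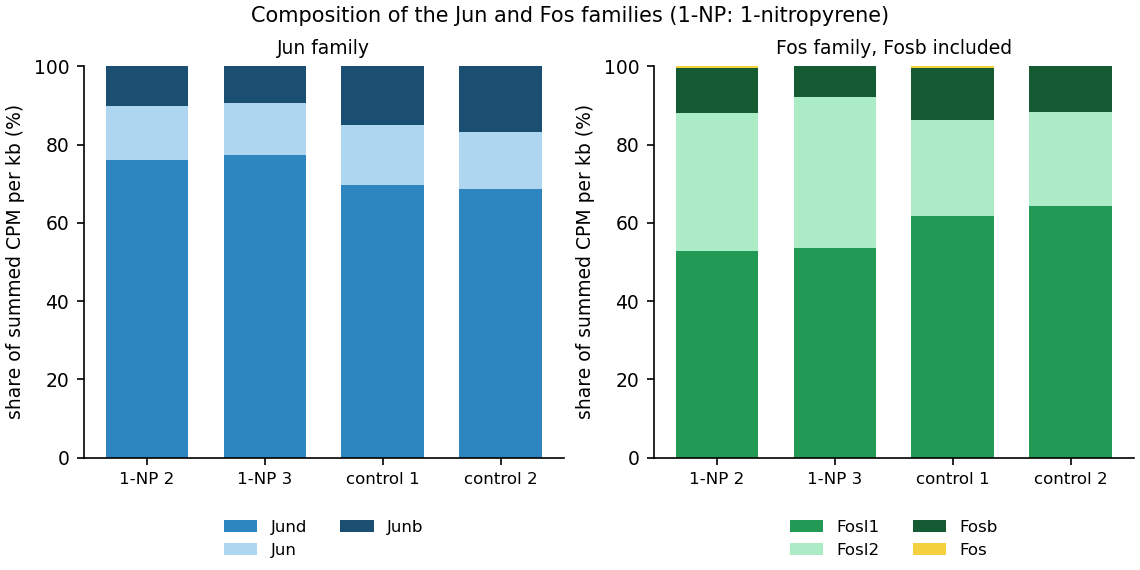
Share of each gene in the summed CPM per kb (vertical axis, percent) of the Jun family and of the Fos family with Fosb, 1 bar per library. Jund fills 76.1% and 77.2% of the Jun family bars with 1-nitropyrene and 69.7% and 68.5% in control, and Fosl2 takes a larger share of the Fos family bars with 1-nitropyrene.

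Other genes of the pathway were taken from 7 lists, with calls from the same edgeR test over all genes (adjusted p under 0.05). The lists, too, were chosen with earlier results of these data known, so their calls are a description. The p-values rest on the 1 spread given to all genes and on replicates that may be technical. The median log2 fold change over all 7738 genes was -0.0035, and 24.5% of them were called. Among 30 other immediate early genes, 16 were tested, 3 rose and 4 fell, with a median of -0.19. Ccn1, a secreted matricellular protein, rose to 54.7 ± 3.88 CPM with 1-nitropyrene, against 26.5 ± 0.48 CPM in control. That is 1.05 on the log2 scale with an SE of 0.10 (adjusted p = 2.55e-24, edgeR). Cited2, a transcriptional co-regulator that competes for CBP and p300, rose by 0.38 (SE 0.04). Klf4, a Krüppel-like factor, fell by 0.40 on the log2 scale and Ier5l, a relative of Ier2, fell by 0.44. The other 3 calls, named after their values were seen, were a rise of the nuclear receptor gene Nr4a2 (0.76) and falls of the MAP kinase phosphatase Dusp1 (-0.58) and the survival factor Mcl1 (-0.20). All 3 calls were lost without control replicate 1, and those of Dusp1 and Mcl1 also in DESeq2. That of Mcl1 was further lost in limma-voom, without a filter on low counts, and without control replicate 2 or 1-nitropyrene replicate 3. Of the list, 5 genes had 0 counts in all libraries, namely Egr4, Atf3, Klf2, Arc and Ppp1r15a. Calls in the list went both ways, as they did over all genes tested (13.2% higher and 11.2% lower), and nothing is read from this.

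Of 22 serum response, CREB and kinase genes that act on these promoters, 21 were tested, 3 rose and 4 fell, with a median log2 fold change of -0.05. Mapk3, which encodes the kinase ERK1, fell to 17.1 ± 0.397 CPM with 1-nitropyrene, against 34.0 ± 2.43 CPM in control (SD, n = 2 each). This was -1.0 on the log2 scale with an SE of 0.12 (adjusted p = 3.37e-14, edgeR). The ERK-activated kinases Rps6ka2 and Rps6ka3 fell by 0.49 and 0.24, and the JNK gene Mapk8 rose by 0.27. The call of Rps6ka2 was lost without control replicate 1, and that of Mapk8 without control replicate 1 and in DESeq2. Serum response factor itself (Srf) had 272 and 277 CPM with 1-nitropyrene and 252 and 282 CPM in control, and was not called (log2 fold change 0.05, adjusted p = 0.439, edgeR). The point far to the right in the plot of lists is Mrtfb, a co-activator of serum response factor, with 13 and 15 counts with 1-nitropyrene and 4 and 2 in control. It was named after its values were seen, its call was lost without either control replicate, and DESeq2 gave it no adjusted p.

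Of 20 possible AP-1 partners, 12 were tested, 1 rose and 1 fell, with a median of -0.10. Nfe2l1, a bZIP factor that raises proteasome genes, fell to 421 ± 7.23 CPM with 1-nitropyrene, against 693 ± 22.4 CPM in control (-0.72 on the log2 scale, SE 0.03, adjusted p = 4.13e-101, edgeR). Maf rose by 0.57 (SE 0.15), a call lost in DESeq2 and without 1-nitropyrene replicate 2, and shares 440 exon bases with the opposite strand. Atf2, a Jun partner, had 126 and 131 CPM with 1-nitropyrene and 139 and 143 CPM in control and was not called (log2 fold change -0.13, adjusted p = 0.0781, edgeR).

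Among 14 co-repressors and turnover genes, all tested, 2 rose and 2 fell, with a median log2 fold change of -0.09. Nab2, a co-repressor that Egr1 induces, fell to 16.2 ± 0.247 CPM with 1-nitropyrene, against 27.7 ± 2.14 CPM in control, or -0.79 on the log2 scale with an SE of 0.13 (adjusted p = 5.05e-08, edgeR). Nab2 shares 1241 exon bases with an opposite-strand gene. The deacetylases Hdac2 and Hdac3 rose by 0.20 and 0.17, and Ncor1 fell by 0.13. All 3 calls were lost in DESeq2 and without control replicate 2, those of Hdac3 and Ncor1 also without 1-nitropyrene replicate 2, that of Ncor1 without a filter on low counts and that of Hdac2 without 1-nitropyrene replicate 3. Fbxw7, the ubiquitin ligase subunit that degrades phosphorylated Jun and is named in the study's purpose, was not called (log2 fold change -0.21, adjusted p = 0.196, edgeR).

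Of 20 factors that bind AU-rich elements or degrade mRNA, 18 were tested, 3 rose and 3 fell, with a median of 0.03. Cnot1, the scaffold of the deadenylase complex, rose to 685 ± 19.1 CPM with 1-nitropyrene, against 514 ± 5.29 CPM in control (0.41 on the log2 scale, SE 0.03, adjusted p = 1.3e-35, edgeR). Khsrp, which recruits decay enzymes to AU-rich elements, rose by 0.19. Zfp36l1, a binder of AU-rich elements that promotes decay, fell to 96.8 ± 1.15 CPM with 1-nitropyrene, against 139 ± 1.6 CPM in control, and shares 1672 exon bases with genes on the opposite strand. Rc3h2, a binder of stem-loop decay elements, fell by 0.24.

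Of 30 genes listed as AP-1 or Egr1 targets in the wider literature, 10 were tested, 3 rose and 1 fell, with a median log2 fold change of -0.04. Fibronectin (Fn1) rose to 410 ± 17.6 CPM with 1-nitropyrene, against 184 ± 6.84 CPM in control, or 1.15 on the log2 scale with an SE of 0.04 (adjusted p = 2.35e-164, edgeR). Vim rose by 0.23, and Dusp6, an ERK phosphatase, rose by 0.52, a call lost in DESeq2, without control replicate 1 and without 1-nitropyrene replicate 2. The matrix protease Mmp14 fell by 0.54, a call lost in DESeq2 and without control replicate 1. 9 of the 30, including Plaur, Plau, Timp1, Il6 and Cxcl1, had 0 counts in all libraries. Among 16 Krüppel-like and Sp genes outside the 10, 9 were tested, 0 rose and 4 fell (Klf4, Klf9, Klf13 and Klf7), with a median of -0.28. At an unadjusted p under 0.05 the number that rose in edgeR was also 0, as it was in DESeq2, which called 3 lower. Over all genes tested, edgeR called 13.2% higher and 11.2% lower, so among 9 genes a count of 0 says little. Klf9, a Krüppel-like factor known from hormone response, fell to 74.3 ± 1.66 CPM with 1-nitropyrene, against 97.5 ± 1.12 CPM in control. Klf4 stands in this list and in that of other immediate early genes. The calls of Klf7 and Klf13 were lost without control replicate 1, and that of Klf7 also in DESeq2, without a filter on low counts, and without control replicate 2 or 1-nitropyrene replicate 3. Klf7 also shares 3200 exon bases with the opposite strand.

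**Figure D4:**
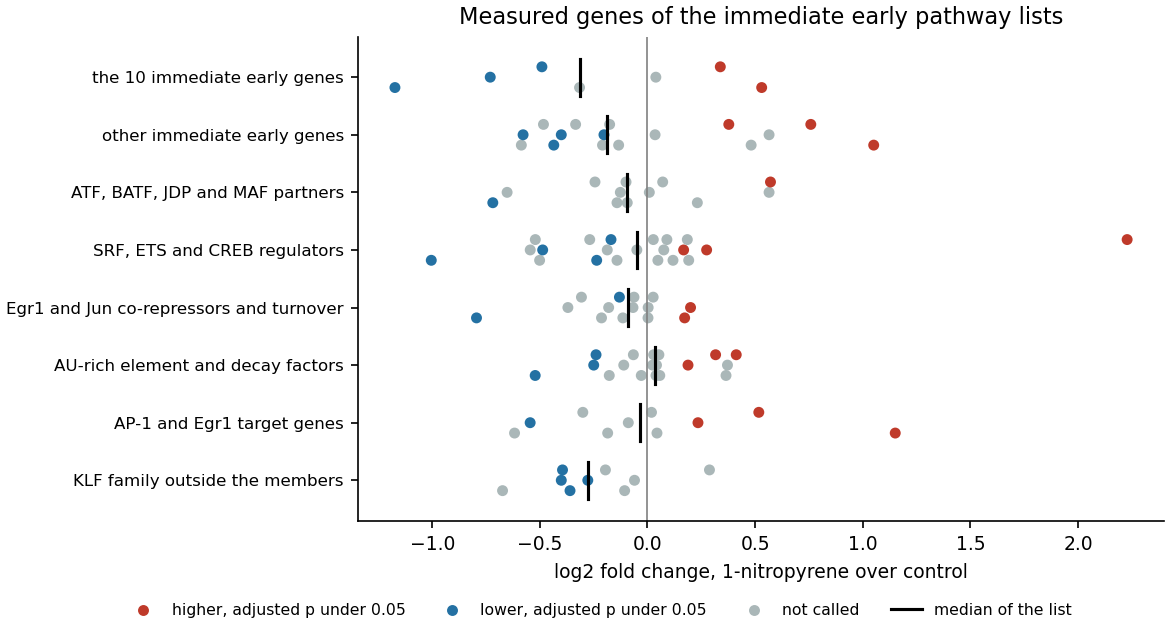
Log2 fold change of 1-nitropyrene over control (horizontal axis) for each tested gene of the 10 immediate early genes and of 7 related lists (rows), coloured by the call at an adjusted p under 0.05, with the median of each list as a black line. Medians lie between -0.32 for the 10 immediate early genes, of which 7 were tested, and 0.03 for the mRNA decay factors. Every list but the Krüppel-like one, of which only 9 genes were tested, holds calls in both directions.

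Genes whose pattern over the 4 libraries was nearest to that of Egr1 were sought among 4255 protein-coding genes averaging 10 CPM or more, by the Euclidean distance between log2 CPM deviations from the gene's own mean. They were the collagen IV chain Col4a5 (distance 0.121), the homeobox factor Prrx1 (0.174), the mTORC1 inhibitor Ddit4 (0.195), Mapk3 (0.225) and Tmem151b (0.246). Their log2 fold changes lay between -1.33 and -0.93. For Jund they were Bms1, a ribosome biogenesis factor, the cullin Cul4b, the co-activator Zmiz1, the anaphase-promoting complex subunit Anapc10 and the chromatin reader Brpf1, with distances of 0.0289 to 0.0361. With 4 libraries in 2 groups, likeness of this kind reflects mainly the difference between the groups.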

How the data were processed

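The deposited table holds raw read counts per gene for 4 libraries, 1 column each. Library preparation used a stranded kit for polyadenylated RNA, per the labels' protocols. HISAT2 2.1.0, featureCounts 1.6.3, DESeq2 and the build GRCm38 (mm10) are named without roles, per the submitters' processing notes. Which annotation release was counted, whether by strand, and how multi-mapped reads were treated is not given in the sources used here. Symbols, exon lengths and positions come from GENCODE M21 on GRCm38, which matched 53360 of 53465 identifiers.

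Counts were fitted with edgeR 4.0.16 (R 4.3.3) after filterByExpr, with TMM factors between 0.989 and 1.01 and a quasi-likelihood test of 1-nitropyrene against control over 7738 genes, at a Benjamini-Hochberg adjusted p under 0.05, two-sided. The prior degrees of freedom were infinite, and the biological coefficient of variation was 2.34%. The fit was checked on simulated counts with 1 dispersion for every gene, set higher than the 0.000546 fitted to these data. That check could not test whether a common spread suits all genes. Intervals and floors (3 counts) are at the 95% level or cover counting error only.

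The 10 genes and the lists were chosen with earlier results of these data known. Named from each list are up to 4 called genes with the smallest p and a mean of at least 5 CPM, others as stated. The 15 alternative settings were other scalings and filters, limma-voom (limma 3.58.1), DESeq2 1.42.0, the older and the robust quasi-likelihood fit, no rRNA loci, coding genes only and each library left out. Pairs of libraries differed beyond sampling noise, and none was merged. A planned comparison of Jun protein sequences was not made.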

Additional observations from a re-analysis of the deposited data

How the results depend on the processing

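Over 15 alternative settings the 7 measured genes kept their direction and their call, with 1 exception: Jun, not called in any setting, had a log2 fold change of -0.0098 without control replicate 2, against 0.10 without control replicate 1. The log2 fold change of Egr1 ranged from -1.24 to -1.11, that of Klf6 from -0.78 to -0.69, Junb from -0.54 to -0.46, Fosl1 from -0.39 to -0.21, Jund from 0.30 to 0.39 and Fosl2 from 0.39 to 0.70. The number of these genes called higher (2) and lower (3) was the same in all 15. Over all genes, 1024 were called higher and 870 lower. DESeq2 called 514 higher and 316 lower, and edgeR without a filter on low counts called 532 lower. With 1 library left out, edgeR called 690 to 861 higher and 511 to 647 lower, where a lone library is assumed to vary like the pair of the other group. With library sizes alone the share of higher calls was 46%, against 54.1% with TMM factors. DESeq2 called fewer list genes, with 0 higher and 3 lower among regulators of the promoters, 0 and 1 among partners, 0 and 1 among co-repressors, 3 and 2 among other immediate early genes, 2 and 2 among decay factors, 2 and 0 among targets and 0 and 3 among Krüppel-like and Sp genes. No paired analysis was possible because the groups share only the replicate number 2. Fos, Klf10 and Ier2 had too few counts for a fold change, for a reason not tested, and overlap with opposite-strand genes limits Jund and Fosl1.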
